A study of Homo sapiens with 6 samples.

Results

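The genes described here are 10 chromatin regulators that are recurrently mutated in human bladder cancer: KDM6A, KMT2A, KMT2B, KMT2C, KMT2D, ARID1A, CREBBP, EP300, EZH2 and ASXL1. They were chosen by gene symbol, all 10 were found among the 33542 genes of the deposited count table, and all 10 passed the expression filter. RNA was sequenced from T24, a cell line from a human urinary bladder carcinoma, after transfection of a small interfering RNA against TRAIP (siTRAIP, 3 libraries) or a control small interfering RNA (siNC, 3 libraries). Both groups were the same cell line treated with the same lipid transfection reagent, RNA went into a stranded mRNA library kit, the column names show 1 small interfering RNA against TRAIP (siTR2), and its sequence is not given in the sources used here. TRAIP is an E3 ubiquitin ligase of the replication fork, and the study set out to find what changes downstream of it in bladder cancer cells.

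These regulators write, erase or act on marks of histone H3 and H2A. KMT2A and KMT2B methylate lysine 4 of histone H3 mainly at promoters, whereas KMT2C and KMT2D place the monomethyl mark at enhancers in complexes that contain the lysine 27 demethylase KDM6A. CREBBP and EP300 acetylate lysine 27, and EZH2, the catalytic subunit of Polycomb repressive complex 2 (PRC2), methylates the same residue. ARID1A is a subunit of the SWI/SNF nucleosome remodeller BAF, and ASXL1 is the partner of the deubiquitinase BAP1, which removes ubiquitin from histone H2A. In urothelial tumours most of these genes are hit by loss-of-function mutations, while EZH2 is better known for high expression in proliferating and advanced tumours.

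TRAIP mRNA stood at 12.5, 14.7 and 11.6 CPM (counts scaled to library size, per 1e6 counts) in siTRAIP libraries, against 26.6, 28.3 and 28.4 CPM in siNC libraries. By edgeR its log2 fold change was -1.11 with an SE of 0.07 (adjusted p = 6.74e-10), and the groups did not overlap. Library totals ran from 39111793 to 70439496 counts in siTRAIP and from 54818483 to 58066330 in siNC. The deepest library, siTRAIP replicate 3, stood apart: a chi-square of its gene counts, divided by the degrees of freedom, was 17.4 against siTRAIP replicate 1 and 18 against replicate 2, and 3.35 to 7.93 between other libraries of a group. COL1A1, a fibroblast marker, was at 4.26 CPM in it and 0.923 to 1.11 CPM elsewhere, and its part in the results was not tested. Without that library EZH2 was still the only regulator called (log2 fold change 0.15, edgeR adjusted p = 0.00955). The labelled cell type was only in part visible in its markers: KRT8 and KRT18, keratins of simple epithelium, were high (1596 and 514 CPM in siTRAIP, 1686 and 497 CPM in siNC), and the keratin KRT19 and the urothelial regulator PPARG were present (20.7 and 18.9 CPM in siTRAIP, 20.7 and 18.4 CPM in siNC). The uroplakin UPK2, EPCAM and GATA3 passed the filter at 0.767, 1.66 and 0.288 CPM in siTRAIP and 0.893, 1.30 and 0.173 CPM in siNC, while the uroplakins UPK1A and UPK3A, the basal keratin KRT5 and the cadherin CDH1 did not pass it. All 3 endothelial markers in the table stayed below 1 CPM in every library, as did 3 of 4 leukocyte markers and 2 of 3 fibroblast markers. CD68, a lysosomal gene counted as a leukocyte marker, was the exception and set that list's sum (38.8 to 46.1 CPM in siTRAIP, 34.2 to 36.1 CPM in siNC); its part in the results below was not tested. In bulk RNA, fewer cells of a kind and less RNA per cell cannot be told apart.

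After TRAIP knockdown EZH2 rose, no regulator fell, and the other 9 did not pass the test. With 1 small interfering RNA against TRAIP, loss of TRAIP and other effects of that RNA cannot be told apart. Across all 18685 genes tested with edgeR, 12.8% were called at an adjusted p of 0.05, 7.47% as higher and 5.34% as lower in siTRAIP, so 1 of 10 is close to that background. The median log2 fold change of the set was 0.01, beside -0.002 over all tested genes, and 8 of the 10 had an absolute log2 fold change under 0.125, the median of all tested genes. Library ranges did not overlap between groups for EZH2 and ARID1A (siTRAIP above) and for KMT2D (siTRAIP below), which is 3 of 10 beside 29.1% of all tested genes (14.8% above and 14.4% below). These ranges depend on the scaling. On the deposited RPKM, which carries no TMM factor, EZH2 lay above, KMT2D, KMT2A, KMT2B and EP300 lay below, and ARID1A overlapped, 5 of 10 beside 32.2% of all tested genes (9.27% above and 22.9% below). For the 9 regulators that were not called, the 95% confidence intervals of the fold change all lay between 0.861 and 1.17. Whether libraries of 1 group derive from different cultures is not stated in the labels, and the p-values therefore reflect the spread among these libraries alone, which may be technical.

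**Figure D1:**
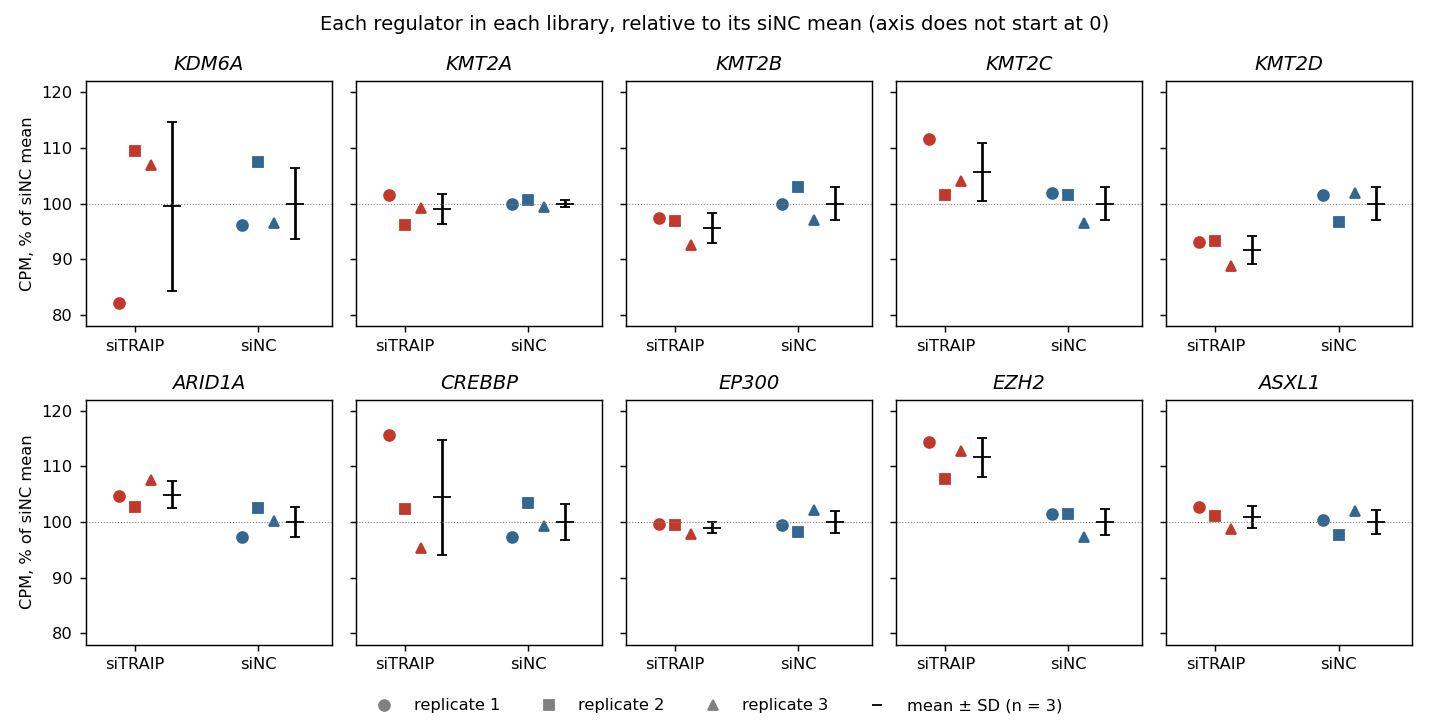
CPM of each regulator in each library, as a percentage of that gene's siNC mean (vertical axis, not starting at 0), with siTRAIP in red and siNC in blue; black marks are the mean ± SD of 3 libraries. EZH2 lies between 108% and 114% in siTRAIP, KMT2D between 88.8% and 93.2%, and CREBBP and KDM6A show the widest scatter among siTRAIP libraries.

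**Figure D2:**
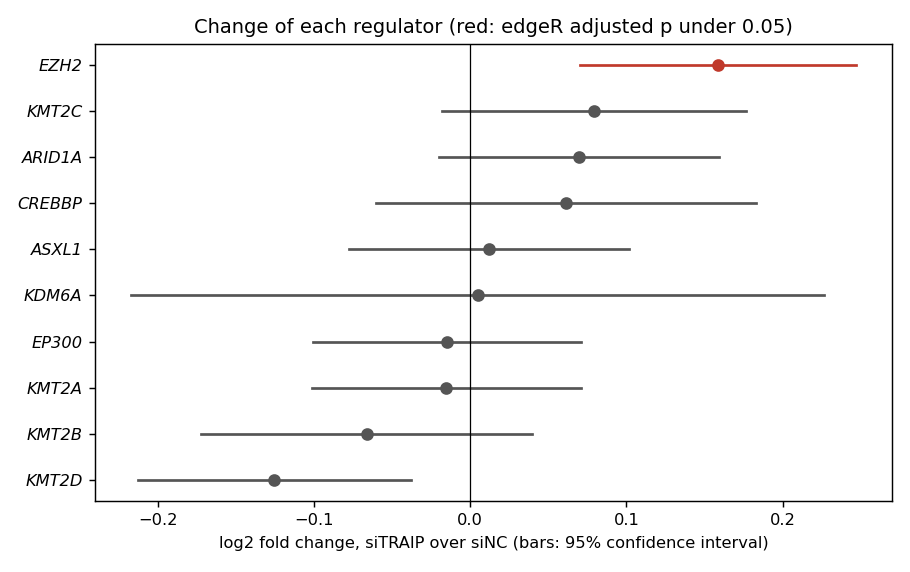
Log2 fold change of siTRAIP over siNC for each regulator (points) with its 95% confidence interval (bars), ordered by size, from edgeR on 3 libraries per group. EZH2 (0.16) is the only point in red, called at an adjusted p of 0.05, and the interval of KDM6A (-0.22 to 0.23) is the widest.

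Per unit of annotated exon length the regulators spanned a wide range of expression. That length counts all annotated exons of a gene, so the order below can depend on the annotation. For ARID1A it was 15922 bases, whereas its transcript with the longest coding sequence had 8212 bases from its coding start. On the deposited RPKM scale (counts scaled by gene length and library total), EZH2 was the highest at 27.6 ± 0.644 RPKM in siTRAIP and 25.8 ± 0.477 RPKM in siNC (SD, n = 3 each). KDM6A was the lowest at 0.859 ± 0.136 RPKM in siTRAIP and 0.899 ± 0.0494 RPKM in siNC (SD, n = 3 each). The ratio between these extremes was 32.1 in siTRAIP and 28.7 in siNC. EZH2 stood above 91.0% of tested genes in siTRAIP and 90.3% in siNC, and KDM6A above 30.7% in both groups. In siTRAIP the order from high to low was EZH2, CREBBP, EP300, ASXL1, KMT2D, KMT2A, ARID1A, KMT2C, KMT2B and KDM6A, and the library ranges of neighbours did not overlap. In siNC, KMT2D stood above ASXL1, and the ranges overlapped between EP300 and KMT2D, between KMT2D and ASXL1, and between KMT2C and KMT2B.

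**Figure D3:**
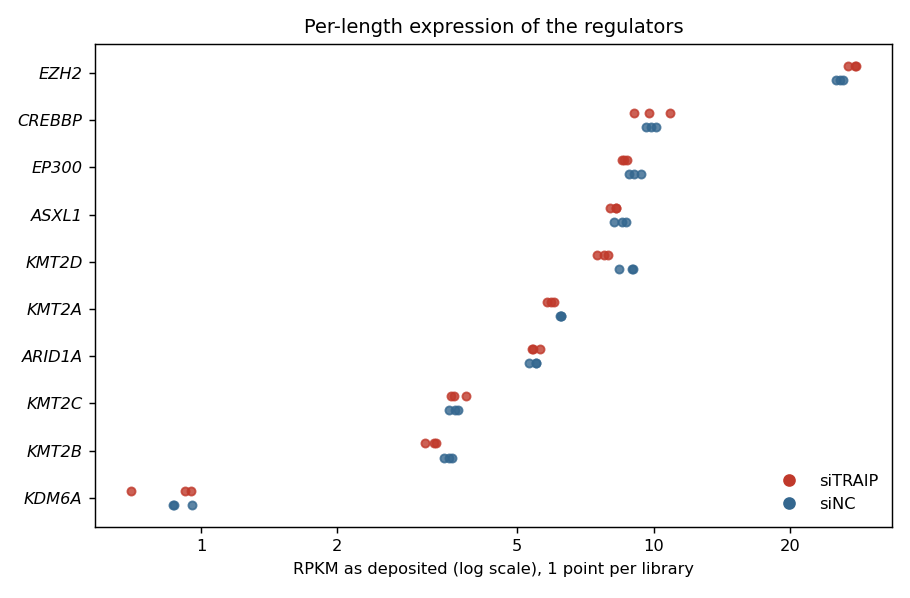
Deposited RPKM of each regulator on a log scale, 1 point per library, siTRAIP in red above siNC in blue, ordered by the siTRAIP mean. EZH2 lies near 27.6 RPKM in siTRAIP, KDM6A below 1 RPKM in all libraries, and the other 8 between 3.13 and 10.9 RPKM.

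EZH2 was the regulator that rose. Its 3 siTRAIP libraries held 131, 123 and 129 CPM, against 116, 116 and 111 CPM in siNC libraries. All 3 siTRAIP values lay above all 3 siNC values. The fold change was 1.12 (95% confidence interval 1.05 to 1.19), a log2 fold change of 0.16 with an SE of 0.04 (adjusted p = 0.0147 by edgeR), and the median rise among all called genes was 0.26. The call was lost without siNC replicate 1, 2 or 3 (adjusted p = 0.0531, 0.0524 and 0.0803) and without siTRAIP replicate 1 (0.0739), and also when libraries were scaled by their totals alone (log2 fold change 0.10, adjusted p = 0.119) or limma was run on log2(RPKM + 0.1) or log2(RPKM + 1) (0.10 and 0.09, adjusted p = 0.143 and 0.141). The gene lies on the minus strand of chromosome 7 (148807383 to 148884321, GRCh38), shares no exonic base with another gene of the table, and has 1 annotated pseudogene, EZH2P1. Across the 6 libraries, the genes closest to EZH2 in centred log2 CPM among 10698 searched were KIF20B, a mitotic kinesin (root mean square distance 0.0130), and SF3A3, a splicing factor subunit (0.0132). The distance includes the difference between groups, so genes with a like rise come out closest. KIF20B and SF3A3 had log2 fold changes of 0.16 and 0.17 (edgeR adjusted p = 0.0120 and 0.00515). Shared regulation was not tested.

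The promoter of EZH2 is shown because EZH2 is a known E2F target and the only regulator called. The letters TTTGGCGC, TTTCCCGC, TTTCGCGC and TTTGCCGC, which are core forms of the E2F site, were searched on both strands of the RefSeq promoters (GRCh38.p14, 250 bases before to 50 after the start). Promoters of all 10 regulators were in that table, and EZH2 alone held a match, TTTGGCGC, in capitals below, from base 252 of the sequence printed. That base lies after the annotated start, which 250 bases precede. A second EZH2 promoter in the table held none. At least 1 match was present in 3.31% of all 35116 promoters in the table and in 6.56% of 10592 tested genes with a promoter there. Of these genes, 10.0% of the 997 called as higher and 4.51% of the 710 called as lower held a match. Among SWI/SNF subunits with a promoter there, 1 of 17 did. Among the PRC2 genes described next, SUZ12, EZH1, MTF2, AEBP2 and PHF19, none of them called, held a match (5 of 10), whereas RBBP4 and JARID2, which rose, held none, nor did KIF20B and SF3A3. A gene with several promoters counted if any of them held a match. Regulation by E2F was not tested. The sequence runs 5′ to 3′ on the minus strand of chr7:148884242-148884541.
EZH2: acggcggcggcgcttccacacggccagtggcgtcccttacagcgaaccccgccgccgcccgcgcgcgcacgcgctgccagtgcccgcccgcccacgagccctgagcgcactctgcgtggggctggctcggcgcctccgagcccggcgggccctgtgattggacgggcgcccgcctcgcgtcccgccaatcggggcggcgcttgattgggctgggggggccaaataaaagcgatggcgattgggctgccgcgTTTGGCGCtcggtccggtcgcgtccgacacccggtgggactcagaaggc

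Of the 10 other PRC2 subunits tested, core and accessory, RBBP4 and JARID2 rose and none fell, beside 7.47% and 5.34% of all tested genes, with a median log2 fold change of 0.11 beside -0.002 over all genes. RBBP4, a histone-binding core subunit shared with other complexes, stood at 59.9, 58.2 and 67.1 CPM in siTRAIP and 51.1, 50.9 and 50.1 CPM in siNC, a log2 fold change of 0.29 with an SE of 0.05 (adjusted p = 4.45e-04 by edgeR). SYNC on the opposite strand shares 18.01% of its exonic bases and it has 6 annotated pseudogenes, so its value is uncertain; it was also not called with limma on either RPKM scale (adjusted p = 0.0721 and 0.0744). JARID2, an accessory subunit that helps recruit PRC2, had a log2 fold change of 0.24 with an SE of 0.07 (adjusted p = 0.0235 by edgeR), which was not called without siNC replicate 1 (adjusted p = 0.184) or 3 (0.0511) or siTRAIP replicate 1 (0.129) or 2 (0.0664). The core subunits SUZ12 and EED had log2 fold changes of 0.09 and -0.04 and were not called (edgeR adjusted p = 0.211 and 0.698). The list had 1 to 3 rises with 1 library left out and 0 with limma on RPKM. EZH1, the second methyltransferase of the complex, stood at 19.8 CPM in siTRAIP and 17.9 CPM in siNC (edgeR adjusted p = 0.153), and the log2 ratio of EZH2 to EZH1 was 2.69 ± 0.0928 in siTRAIP and 2.68 ± 0.0541 in siNC (SD, n = 3 each; exact permutation p = 0.9).

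KMT2D had the most negative fold change of the 10 and did not pass the threshold. Its siTRAIP libraries held 164, 164 and 157 CPM, against 179, 170 and 180 CPM in siNC libraries, and the groups did not overlap. The fold change was 0.917 (95% confidence interval 0.863 to 0.974), a log2 fold change of -0.13 with an SE of 0.04 (adjusted p = 0.0537 by edgeR). The gene lies on chromosome 12 (49018975 to 49059774, minus strand, GRCh38). There PRKAG1 on the same strand shares 1.09% of its exonic bases and RP11-386G11.5 on the opposite strand 1.27%. KMT2D was called as lower in 5 of 17 alternative settings: with DESeq2 (adjusted p = 0.0438), with the filter set at 1 CPM or more in 3 libraries (0.0431), with halved counts (0.0443), with the trend on gene length removed (0.0307) and with total counts as the only scaling (log2 fold change -0.19, adjusted p = 0.00392).

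**Figure D4:**
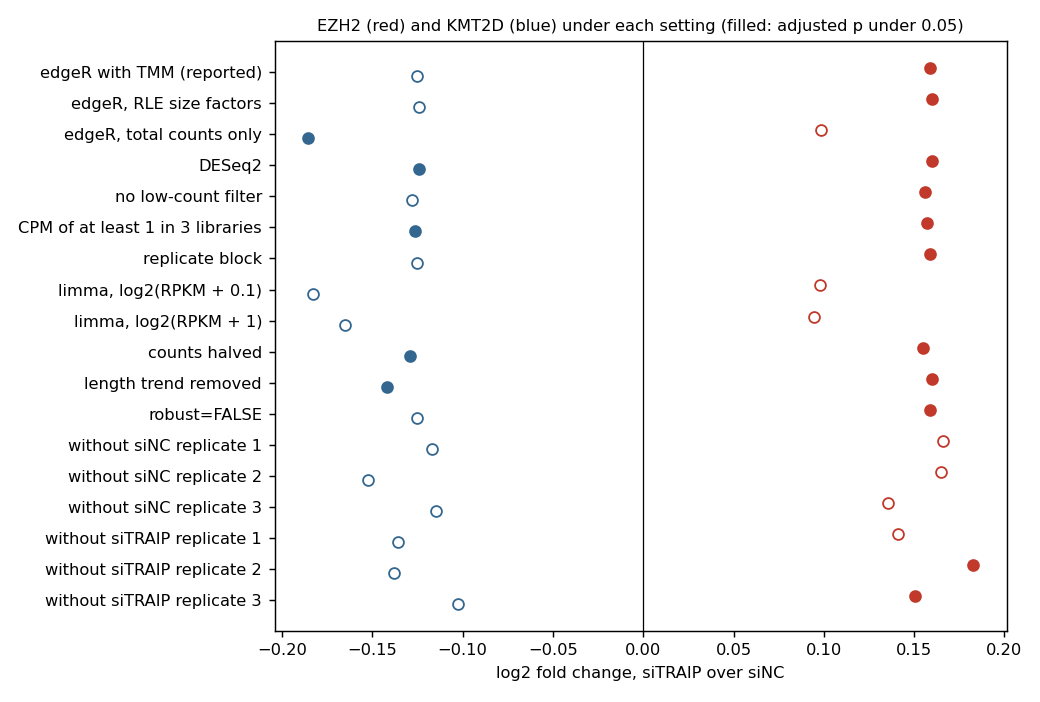
Log2 fold change of siTRAIP over siNC for EZH2 (red) and KMT2D (blue) in the reported fit (top line) and under 17 alternatives (lines below), with filled points where the adjusted p is under 0.05. EZH2 keeps a positive and KMT2D a negative value in every setting shown, between 0.09 and 0.18 for EZH2 and between -0.19 and -0.10 for KMT2D, while the filled points differ by setting.

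KMT2C, the paralogue of KMT2D, did not pass the test either. Its libraries held 79.7, 72.6 and 74.3 CPM in siTRAIP and 72.8, 72.6 and 68.9 CPM in siNC, overlapping ranges and a log2 fold change of 0.08 with an SE of 0.05 (adjusted p = 0.320 by edgeR). Taken as a ratio within each library, which no scaling can shift, log2 of KMT2C over KMT2D was -1.04, -1.18 and -1.08 in siTRAIP, against -1.30, -1.23 and -1.38 in siNC. All 3 siTRAIP ratios lay above all 3 siNC ratios, by 0.20 on average. The exact 2-sided permutation p was 0.1, the smallest that 3 against 3 libraries can give, and 0.525 after adjustment over the 7 paralogue pairs compared. The adjusted p of the other 6 pairs, whose groups overlapped, was 0.525 to 0.9.

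The promoter methyltransferases KMT2A and KMT2B were not called. KMT2A held 136, 129 and 133 CPM in siTRAIP and 134, 135 and 134 CPM in siNC, a fold change of 0.990 (95% confidence interval 0.932 to 1.05; edgeR adjusted p = 0.876). KMT2B held 34.6, 34.4 and 32.9 CPM in siTRAIP and 35.5, 36.6 and 34.5 CPM in siNC, a fold change of 0.955 (95% confidence interval 0.887 to 1.03; edgeR adjusted p = 0.472). Both pairs of groups overlapped in CPM, whereas in RPKM all siTRAIP values of both genes lay below all siNC values (5.80 to 6.03 against 6.21 to 6.26 RPKM for KMT2A, 3.13 to 3.30 against 3.45 to 3.59 RPKM for KMT2B). The log2 ratio of KMT2A to KMT2B was 1.97 ± 0.0549 in siTRAIP and 1.92 ± 0.0336 in siNC (SD, n = 3 each; exact permutation p = 0.3).

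Subunits that work with the KMT2 enzymes gave scattered calls, beside 7.47% and 5.34% of all tested genes called as higher and lower. None of the 4 core subunits shared by all these complexes (WDR5, RBBP5, ASH2L and DPY30) was called, with log2 fold changes from -0.13 to 0.15. Of the 3 subunits particular to KMT2C and KMT2D complexes, PAGR1 rose and NCOA6, a nuclear receptor coactivator, fell. PAGR1 stood at 46.8, 49.0 and 46.3 CPM in siTRAIP and 39.1, 34.1 and 40.0 CPM in siNC (log2 fold change 0.33, SE 0.06, edgeR adjusted p = 2.56e-04), but 66.0% of its exonic bases are shared with genes on the same strand, so this value is uncertain; with limma on the RPKM scales it was not called (adjusted p = 0.0620 and 0.0636). NCOA6 stood at 63.5, 62.6 and 58.8 CPM in siTRAIP and 68.2, 69.6 and 67.0 CPM in siNC (log2 fold change -0.15, SE 0.05, edgeR adjusted p = 0.0339). The NCOA6 call held without siTRAIP replicate 1 only, with adjusted p from 0.0535 to 0.144 when any other library was left out, and was 0.0512 when the replicate number entered the fit.

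Of 4 partners of KMT2A and KMT2B, PSIP1, a chromatin tether, rose by 0.13 on the log2 scale with an SE of 0.04 (adjusted p = 0.0473 by edgeR). The call held without siTRAIP replicate 3 but not without any of the other 5 (adjusted p from 0.0513 to 0.269), and was lost in 12 of 17 alternatives in all, among them the replicate number in the fit (0.0957), halved counts (0.0501), the length trend removed (0.0599) and robust=FALSE (0.0639). Of 4 genes of the SETD1 complexes, the methyltransferase SETD1A rose by 0.17 on the log2 scale with an SE of 0.05 (adjusted p = 0.0133 by edgeR) and was not called without siNC replicate 2 or 3 (adjusted p = 0.0682 and 0.0632) or without siTRAIP replicate 1 or 2 (0.0632 and 0.0507). An opposite-strand gene shares 7.05% of the exonic bases of SETD1A. The medians of these lists were 0.05 and -0.08, and each held 1 rise, beside 7.47% of all tested genes.

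KDM6A was the least expressed regulator and the one measured with the least precision. Its libraries held 5.16, 6.88 and 6.73 CPM in siTRAIP (196, 313 and 464 counts), against 6.05, 6.75 and 6.06 CPM in siNC (347, 374 and 362 counts). The groups overlapped, siTRAIP replicate 1 was the lowest, and the coefficient of variation was 15.2% in siTRAIP and 6.39% in siNC. The fold change was 1.00 (95% confidence interval 0.861 to 1.17; edgeR adjusted p = 0.987), and the log2 fold change was 0.11 without siTRAIP replicate 1. KDM6B, the other lysine 27 demethylase, stood at 8.98, 8.13 and 8.15 CPM in siTRAIP and 6.71, 6.66 and 8.21 CPM in siNC, overlapping ranges and a log2 fold change of 0.22 with an SE of 0.10 (adjusted p = 0.145 by edgeR; 0.0491 without siNC replicate 3). The log2 ratio of KDM6A to KDM6B was -0.44 ± 0.312 in siTRAIP and -0.19 ± 0.231 in siNC (SD, n = 3 each; exact permutation p = 0.4).

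Among the 6 other demethylases of lysine 4 or lysine 27 that were tested, KDM5B was the only one called, and it fell, beside 5.34% of all tested genes. The list had 2 falls with total counts, on both RPKM scales, with the 1 CPM filter, with halved counts and without siTRAIP replicate 1. KDM1A had a log2 fold change of -0.13 (edgeR adjusted p = 0.0560). KDM5B removes methyl groups from lysine 4, the residue that the KMT2 enzymes modify. It stood at 35.8, 33.5 and 33.3 CPM in siTRAIP and 44.5, 44.5 and 39.6 CPM in siNC, groups that did not overlap (log2 fold change -0.33, SE 0.06, edgeR adjusted p = 2.10e-04). It was called in all 17 alternatives, with adjusted p of at most 0.0195.

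CREBBP and EP300, the acetyltransferase paralogues, did not pass the test, and their siTRAIP libraries had unlike spreads. EP300 held 111, 111 and 109 CPM in siTRAIP and 111, 109 and 114 CPM in siNC, with a fold change of 0.990 (95% confidence interval 0.933 to 1.05; edgeR adjusted p = 0.879). In contrast, CREBBP held 174, 154 and 143 CPM in siTRAIP, against 146, 155 and 149 CPM in siNC. The siTRAIP range enclosed the whole siNC range, with a coefficient of variation of 9.90% in siTRAIP and 3.17% in siNC. The CREBBP log2 fold change was 0.06 with an SE of 0.06 (adjusted p = 0.575 by edgeR) and -0.02 without siTRAIP replicate 1. Of 7 other histone acetyltransferases, KAT6A alone was called, beside 12.8% of all tested genes. KAT6A stood at 147 ± 5.65 CPM in siTRAIP and 121 ± 2.38 CPM in siNC (SD, n = 3 each), a rise of 0.28 on the log2 scale (SE 0.04, edgeR adjusted p = 7.23e-05). The log2 ratio of CREBBP to EP300 was 0.50 ± 0.130 in siTRAIP and 0.43 ± 0.065 in siNC (SD, n = 3 each; exact permutation p = 0.6).

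ARID1A did not pass the test. It held 88.7, 87.0 and 91.1 CPM in siTRAIP and 82.5, 86.9 and 85.0 CPM in siNC. The lowest siTRAIP library (87.01 CPM) and the highest siNC library (86.89 CPM) were almost level, and on the RPKM scale the groups overlapped. The fold change was 1.05 (95% confidence interval 0.986 to 1.12; edgeR adjusted p = 0.348), and the log2 fold change was 0.07, or 0.01 with total counts as the only scaling. ARID1B, the mutually exclusive paralogue in BAF, stood at 41.8 ± 1.37 CPM in siTRAIP and 41.4 ± 0.828 CPM in siNC (SD, n = 3 each; edgeR adjusted p = 0.911), and the log2 ratio of ARID1A to ARID1B was 1.09 in siTRAIP and 1.03 in siNC (exact permutation p = 0.2).

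Of the 21 other SWI/SNF subunits tested, 8 rose and 1 fell, with a median log2 fold change of 0.12, beside 7.47% and 5.34% of all tested genes and a median of -0.002. The largest rises by log2 fold change were in BCL7A and BCL7B, small BAF subunits, while the third of that family, BCL7C, was not called (log2 fold change 0.07, edgeR adjusted p = 0.467). BCL7A stood at 18.8, 17.6 and 24.1 CPM in siTRAIP and 12.5, 11.4 and 11.7 CPM in siNC (log2 fold change 0.78, SE 0.10, edgeR adjusted p = 1.97e-04), and an opposite-strand gene shares 9.78% of its exonic bases. Its highest library was siTRAIP replicate 3, without which the log2 fold change was 0.62 (edgeR adjusted p = 3.67e-07). BCL7B stood at 44.4, 47.8 and 43.5 CPM in siTRAIP and 33.1, 33.7 and 35.2 CPM in siNC (log2 fold change 0.41, SE 0.05, edgeR adjusted p = 5.74e-06). SMARCE1, a core subunit with a high-mobility-group domain, stood at 731, 695 and 637 CPM in siTRAIP and 529, 561 and 534 CPM in siNC (log2 fold change 0.34, SE 0.05, edgeR adjusted p = 1.96e-05), with 8.84% of its exonic bases shared on the same strand and 7 annotated pseudogenes. The groups of these 3 genes did not overlap.

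The other 5 rises are given as log2 fold change and edgeR adjusted p. They were in the scaffold subunits SMARCC1 (0.29, 2.10e-04) and SMARCC2 (0.17, 0.00563), the ATPase SMARCA2 (0.26, 2.90e-04), and the PBAF subunits BRD7 (0.15, 0.0172) and PHF10 (0.23, 0.0161). ARID2, the subunit that takes the place of ARID1A in PBAF and is itself mutated in bladder cancer, went the other way. It fell to 22.0, 20.5 and 19.8 CPM in siTRAIP, against 26.0, 25.0 and 24.6 CPM in siNC (log2 fold change -0.28, SE 0.06, edgeR adjusted p = 0.00238). With 1 library left out the list had 6 to 9 rises and 1 fall, and with total counts as the only scaling it had 5 rises and 2 falls and a median of 0.06. Under that scaling the split over all genes was 838 higher and 2050 lower, against 1396 higher and 997 lower with TMM scaling.

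ASXL1 did not pass the test. It held 80.5, 79.3 and 77.4 CPM in siTRAIP and 78.6, 76.5 and 79.9 CPM in siNC, overlapping groups with a fold change of 1.01 (95% confidence interval 0.948 to 1.07; edgeR adjusted p = 0.907). Its paralogue ASXL2 stood at 103 ± 3.77 CPM in siTRAIP and 98.2 ± 0.549 CPM in siNC (SD, n = 3 each; edgeR adjusted p = 0.396), and the log2 ratio of ASXL1 to ASXL2 was -0.38 in siTRAIP and -0.33 in siNC (exact permutation p = 0.3). Of 7 tested partners of this Polycomb deubiquitinase, the forkhead factor FOXK2 rose (log2 fold change 0.17, SE 0.05, edgeR adjusted p = 0.0153; 0.145 without siNC replicate 1), with 14.1% of its exonic bases shared with opposite-strand genes. BAP1 itself had a log2 fold change of 0.06 (edgeR adjusted p = 0.450). Of 6 further chromatin genes reported as mutated in bladder cancer, several of which also stand in the lists above, ARID2 alone was called, and NCOR1 and CHD6 had log2 fold changes of -0.01 and 0.06 (edgeR adjusted p = 0.896 and 0.398). For both lists, the share called over all tested genes was 12.8%.

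**Figure D5:**
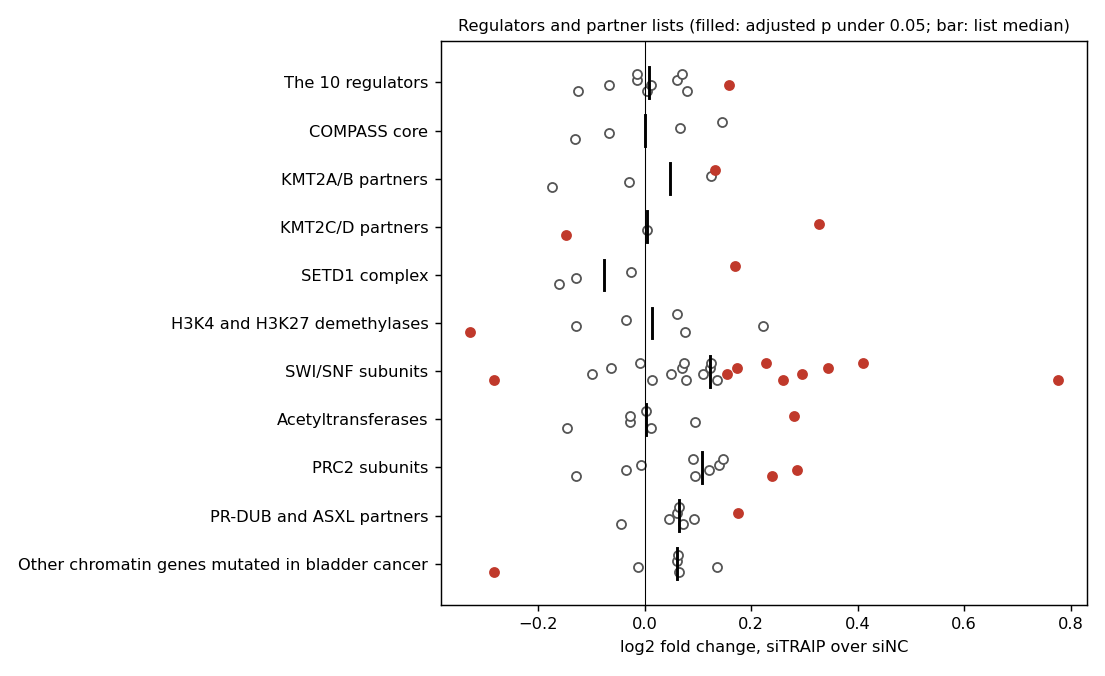
Log2 fold change of siTRAIP over siNC for the 10 regulators (top line) and for each list of partner genes (lines below), 1 point per tested gene, filled red where the edgeR adjusted p is under 0.05, with the list median as a black bar. SWI/SNF subunits hold 8 filled points to the right and 1 to the left, and the median of the 10 regulators lies at 0.01.

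Over all 10 partner lists, 68 of 69 genes were tested, of which 15 rose and 3 fell (22.1% and 4.41%, beside 7.47% and 5.34% of all tested genes), with a median log2 fold change of 0.07. With 1 library left out, 10 to 19 rose and 2 to 4 fell, beside 4.59% to 7.71% and 3.15% to 6.03% of all tested genes. With total counts as the only scaling 8 rose and 8 fell, beside 4.48% and 11% of all tested genes. PSIP1, SETD1A, JARID2 and FOXK2 were not called with total counts as the only scaling (adjusted p from 0.0833 to 0.261) or with limma on either RPKM scale. The shares of 7.47% and 5.34% over all tested genes are not matched to the partner genes for length or expression. The partner lists were also chosen with earlier results of these data known, so their shares are a description. With the filter set at 1 CPM or more in 3 libraries, 9.75% of 14480 tested genes rose and 7.56% fell. Of the partner genes, 18 rose and 4 fell with that filter. Gene length went with the share of calls. Of the 10 regulators 9 belonged to the longest of 5 equal length classes of tested genes (at least 7105 exonic bases), in which 11.3% of genes rose and 7.25% fell, and in the shortest class 2.75% rose and 2.22% fell. The median log2 fold change was 0.01 in the longest class and -0.003 in the shortest.

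Short words in the transcripts are shown because, over all genes of these libraries, ACAGTCT or CAGTCTA was present in 45.0% of genes that fell and 24.6% of those that rose, and TCGGAGA or CGGAGAA in 32.9% of genes that rose and 13.7% of those that fell. Those words had been chosen on fold changes that include the regulators, so their presence is a description. Whether they relate to the sequence of either small interfering RNA was not tested. In the GENCODE v29 transcript with the longest coding sequence, from its coding start to its 3′ end, the first pair was present in 6 of the 10 regulators, beside 28.3% of 9145 protein-coding genes searched and 39.8% of the 5437 genes with at least 2517 bases searched, the length of the shortest regulator. The second pair was present in KMT2A and KMT2C, 2 of 10, beside 18.8% of genes searched and 23.7% of those with at least 2517 bases searched. The shortest regulator was EZH2, and the 6 regulators with the first pair had 5477 to 19419 bases searched. The shares above are therefore not matched to the regulators for length. The 6 regulators with the first pair had a median log2 fold change of -0.01 and the 4 without it (KMT2B, CREBBP, EZH2 and ASXL1) one of 0.04. These fold changes were among those on which the words were chosen, so the medians cannot test the words.

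KMT2D and EP300 each held 4 such words, in 19419 and 8368 bases searched, and are printed because no regulator held more (their log2 fold changes were -0.13 and -0.01). TRAIP is printed for comparison: in its coding sequence the 2 words overlap by 6 bases. Capitals mark the word, and each name carries the position of its first base counted from the transcript's start.
KMT2D 222: tgcggggagccCAGTCTAcacgggcagcg
KMT2D 8831: tgaattgaacaACAGTCTtcatccaacac
KMT2D 14359: cagtcatgctcACAGTCTctgctgctgca
KMT2D 19092: ttttcccctttACAGTCTtctcccctcac
EP300 2560: ggggtgggtcaACAGTCTgcccccaacct
EP300 5454: cttgaggactgCAGTCTAtcatgaaatcc
EP300 7237: ccccagcaactACAGTCTgggatgccaag
EP300 7984: gaggcaggtgcCAGTCTAcaggcctatca
TRAIP 826: gcaagttgcagACAGTCTactctgaattg
The last KMT2D word lies in the 3′ UTR, and the other words printed lie in coding sequence. Per kilobase searched, KMT2D held 0.206 words of this pair and EP300 held 0.478.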

How the data were processed

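The 6 libraries of T24 cells were used, 3 siTRAIP and 3 siNC, grouped by sample title. The deposited values are whole-number gene counts and RPKM, which recomputing from counts, lengths and totals matched within a relative difference of 1.3e-06. Per the submitters' processing notes, Trimmomatic 0.36, Subread 1.5.1 with featureCounts, and GRCh38 were used. No source used here states the aligner, annotation release or strand setting, so overlapping genes are treated as uncertain. Of counts from 1 to 10, 69.3% to 71.1% were even in each library; the cause was not tested, and counts halved were an alternative.

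All genes were tested with edgeR 4.0.16 in R 4.3.3 (filterByExpr, TMM, quasi-likelihood F-test, robust=TRUE, 2-sided, Benjamini-Hochberg adjustment over 18685 genes, threshold 0.05), after a test of the script on simulated data. Confidence intervals are the log2 fold change ± its SE times the t quantile at 95%. CPM use TMM-scaled totals. Alternatives used DESeq2 1.42.0, limma 3.58.1, other scalings and filters, and each library left out. Exonic overlaps were computed from the exons of the deposited table. Opposite-strand genes shared 2.4% of the exonic bases of ARID1A, 1.63% of KMT2A, 0.86% of EP300 and 0.76% of KMT2B.

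The regulators, partner lists and words were chosen with earlier results of these data known. Named genes are TRAIP, the regulators, per list up to 3 called genes with the smallest adjusted p and any called gene against its list's majority, the paralogues, and the 2 genes closest to each called regulator among those with a mean CPM of at least 5; the other SWI/SNF rises, the COMPASS core, SUZ12, EED, BCL7C, KDM1A, COL1A1, BAP1, NCOR1 and CHD6 were named after their values were seen. Promoters are from RefSeq (GRCh38.p14).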

Additional observations from a re-analysis of the deposited data

How the results depend on the processing

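The set's count of called regulators depended on the setting. The count of rises was 0, in place of 1, with total counts as the only scaling and with limma on log2(RPKM + 0.1) or log2(RPKM + 1), and ran from 0 to 1 with 1 library left out. The count of falls was 1, in place of 0, with total counts, DESeq2, a CPM of at least 1 in 3 libraries, halved counts and the length trend removed. Partner genes called as higher numbered 8 with total counts and 6 on each RPKM scale, and those called as lower 8 with total counts, against 15 and 3. Of all tested genes, 4.48% rose and 11% fell with total counts, and 2.47% and 2.41% rose on the RPKM scales. Genes changed numbered 1520 and 1519 on the RPKM scales and 1480 to 2622 with 1 library left out, against 2393. Total counts and RPKM leave out the TMM factors (0.971 to 0.987 in siTRAIP, 1.01 to 1.03 in siNC), and with total counts the all-gene median was -0.06.

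Of 476 values of named genes under alternatives, 399 kept direction and side of the threshold, 47 lost the call, 6 gained it and 24 changed sign. KDM6A was -0.054 with total counts, -0.068 and -0.033 on the RPKM scales, -0.0032 with the length trend removed, -0.0061 with the replicate block and -0.059 to 0.113 with 1 library left out. ASXL1 was -0.048 with total counts, -0.047 and -0.042 on the RPKM scales and -0.0078 to 0.027 with 1 library left out. ARID1B was -0.047, -0.043 and -0.023 in those settings, -0.0022 with the length trend removed and -0.0067 to 0.039 with 1 library left out. CREBBP was -0.0014 and -0.0010 on the RPKM scales. With 1 library left out CREBBP ranged from -0.017 to 0.124, KMT2A from -0.034 to 0.0045 and the EZH2 to EZH1 ratio difference from -0.035 to 0.058. The cause was not tested. TRAIP ranged from -1.21 to -0.99 on the log2 scale and was called in all 17 alternatives.

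No label ties equal replicate numbers to a shared culture or day, and the deviations of libraries that share a number had correlations of 0.034, -0.089 and -0.017. A fit with the replicate block called 2145 genes; EZH2 was still called (adjusted p = 0.0327), and NCOA6 and PSIP1 were not. With 3 libraries a group, the exact permutation test of a ratio cannot go below 0.1. KDM6A rested on the fewest counts of the regulators, 196 to 464 a library. On the RPKM scale, an alternative chosen after seeing the data, 5 regulators in place of 3 had groups that did not overlap, 1 above and 4 below. Over all tested genes the share was 32.2% in RPKM (9.27% above and 22.9% below) and 29.1% in CPM.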
